A study of Mus musculus with 2 samples.

Results

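The genes for 10 heterochromatin proteins, histone methylation enzymes and a demethylase that act in silencing or releasing olfactory receptor genes were placed on a map of chromosome domain boundaries: Lbr, Cbx1, Cbx3, Cbx5, Ehmt1, Ehmt2, Setdb1, Suv39h2, Trim28 and Kdm1a. They were chosen by name for their roles, and all 10 were found among the 21728 protein-coding genes of the autosomes and X in the GENCODE M21 annotation (GRCm38). The map came from in situ Hi-C with DpnII on Olfr17-positive olfactory sensory neurons, sorted by fluorescence from olfactory epithelium (adult mice of strain 129P2/OlaHsd, both sexes mixed). The sort protocol names P2-GFP mice, in which the receptor Olfr17 (also called P2) is marked by a fluorescent protein, while the label for modifications gives none, and no treatment was given. The 2 biological replicates of 23000 and 20000 sorted cells form 1 group, with no control cells, and the sources used here do not give how many animals were pooled. Boundaries were called on both replicates together, so each value below is a single measurement with no replicate error and no p-value, and the number of contacts behind it is unknown. Boundary positions hold no expression, so the labelled cell type could not be checked against its markers.

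As background, each mature olfactory neuron expresses a single receptor allele, and the other receptor genes are covered by trimethylated histone H3 lysine 9 and gathered in compact foci. Methyltransferases write lysine 9 methylation, HP1 proteins bind it, and the envelope protein LBR tethers heterochromatin to the nuclear lamina in many cell types. In mouse olfactory neurons loss of LBR accompanies the gathering of receptor genes in the nuclear interior, and the demethylase LSD1, the product of Kdm1a, is needed to activate the first receptor allele. The measurements here concern where the genes for these proteins lie between domain boundaries, positions across which chromosome contacts are depleted, and not what the proteins do.

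Of the 10 genes, Ehmt1 lay at a domain boundary and the other 9 lay farther inside, at distances like those of protein-coding genes in general. A boundary lay within 10 kb of the transcription start site (TSS) of 1 of the 10 genes, Ehmt1, against 11.5% of all protein-coding genes. The count was still 1 of 10 at 25 kb, where the background was 23.9%. It was 3 of 10 at 50 kb, against 43.2%, and 10 of 10 at 100 kb, against 72.4%. The median distance to the nearest boundary was 60.4 kb for the 10 genes and 59.3 kb for all genes. No gene of the 10 was farther than 92.9 kb from a boundary. With Strong boundaries alone the medians were 60.4 kb for the 10 genes and 100 kb for all genes, with Cbx3 at 122 kb and Ehmt2 at 346 kb. For 6 of the 10 genes the nearer boundary was the upstream one, against 51.5% of all genes. TSS here means the annotated 5′ end of the gene, and distances run to the midpoint of each 5 kb boundary bin.

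**Figure D1:**
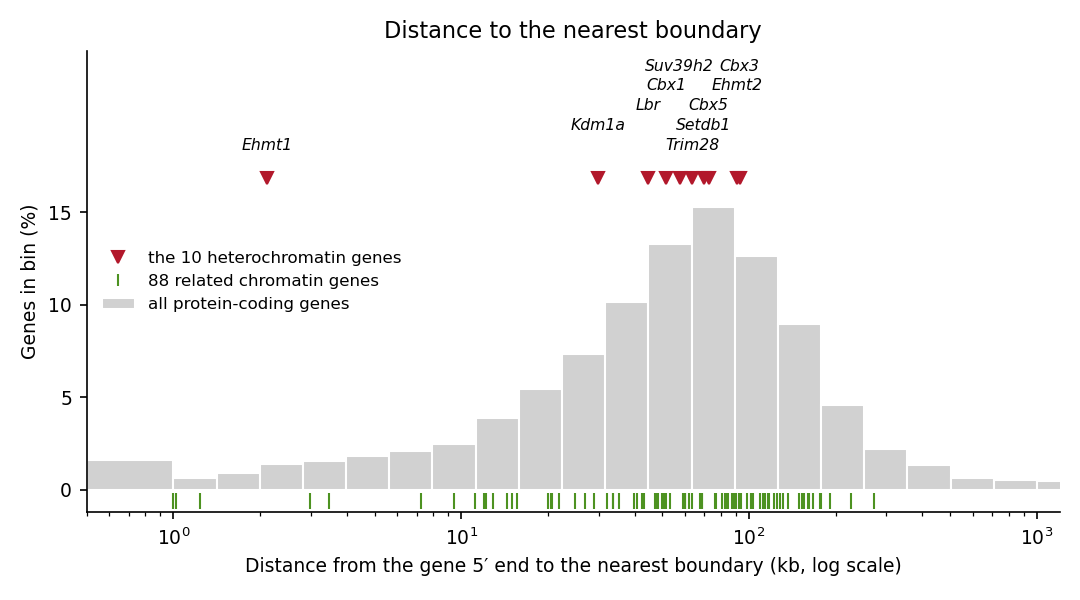
Distance from the 5′ end of each gene to the nearest boundary, in kb on a log axis. Red triangles are the 10 heterochromatin genes, green ticks 88 related chromatin genes, and grey bars the percent of all protein-coding genes in each bin, the first of which holds all distances under 1 kb. Ehmt1 stands at 2.11 kb and the other 9 genes lie between 29.8 and 92.9 kb.

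The boundaries next to these genes were mostly of the Strong class. The authors' boundary score has no stated unit and splits the list into Strong and Weak at 0.50. The nearest boundary was Strong for 8 of the 10 genes, against 64.4% of all genes, and its median score was 1.02, against 0.683 for all genes. The exceptions were Cbx3, with a Weak boundary of score 0.450 on its nearer side, and Ehmt2, with a Weak boundary of score 0.489. Taking the higher-scoring of the flanking boundaries instead of the nearest, the median score was 1.12 for the 10 genes and 1.02 for all genes. Boundaries on both sides were Strong for 4 of 10 genes (Cbx5, Ehmt1, Setdb1 and Suv39h2), against 38.3% of all genes, and Ehmt2 alone had Weak boundaries on both sides. The 20 flanking boundaries were all distinct, 13 of them Strong and 7 Weak, with scores between 0.241 and 2.29. Of all 7576 boundaries, 53.4% were Strong.

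**Figure D2:**
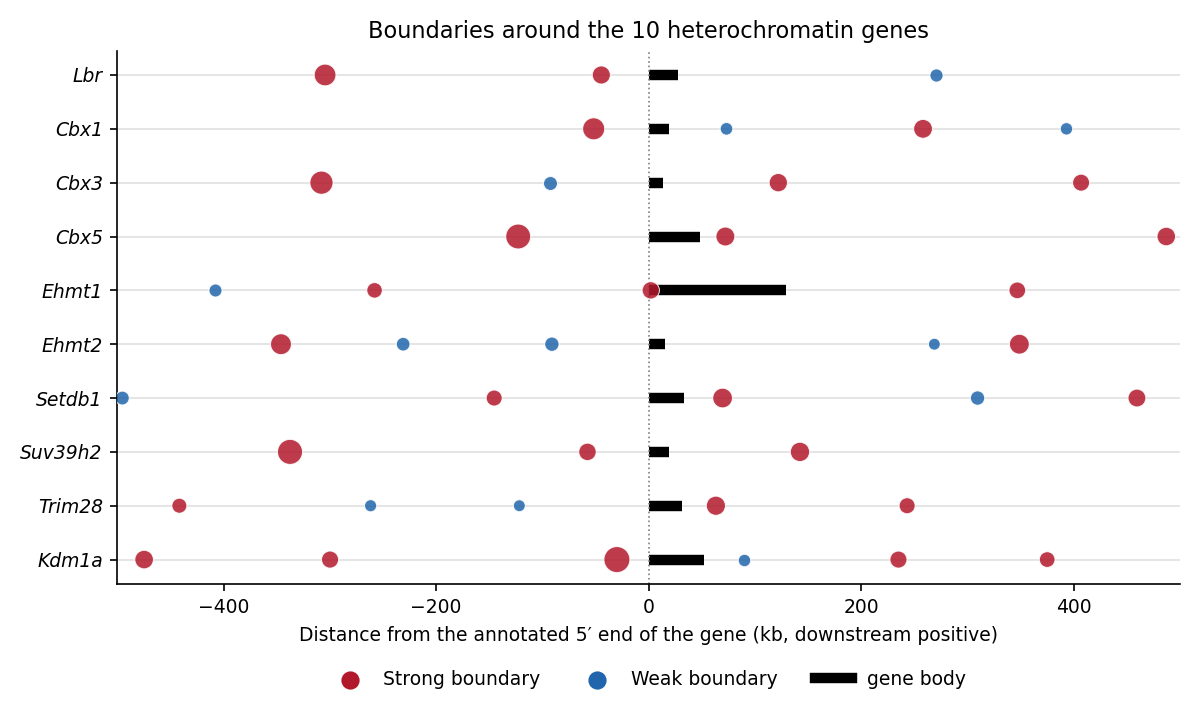
Boundaries within 500 kb of each of the 10 genes, drawn along the direction of transcription with the annotated 5′ end at 0. Circles are boundaries, coloured by class with an area that grows with the score, and black bars are gene bodies. Only the Ehmt1 gene body reaches across a boundary.

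The intervals around the 10 genes ran from 120 to 360 kb. The median interval was 207.5 kb for the 10 genes and 275 kb for all protein-coding genes, whose middle range (quartiles) was 195 to 405 kb. Kdm1a (120 kb) and Cbx1 (125 kb) had the shortest intervals, at the 4.44 and 5.30 percentiles of all genes. Both rest on a Weak downstream boundary, of score 0.297 for Kdm1a and 0.314 for Cbx1. The nearest Strong boundary downstream lay 235 kb from the Kdm1a TSS and 258 kb from the Cbx1 TSS, so these ranks hold only with Weak boundaries counted. Ehmt2 (360 kb) and Lbr (315 kb) had the longest, and both were within the middle range of all genes. With Strong boundaries alone, the median interval was 287.5 kb for the 10 genes and 480 kb for all genes. The number of boundaries within 500 kb of the TSS was 3 to 6, with a median of 4 both for the 10 genes and for all genes.

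Gene content differed far more than length between these intervals. Besides Lbr, its 315 kb interval held the TSS of 1 protein-coding gene, while the 360 kb interval of Ehmt2 held 35 others. Those of Kdm1a, Cbx1 and Cbx3 held 2, 3 and 3 others, those of Cbx5 and Setdb1 held 5 each, those of Ehmt1 and Suv39h2 held 8 each, and that of Trim28 held 11. Counting the gene itself, the median was 6 TSSs per interval for the 10 genes and also for all genes.

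**Figure D3:**
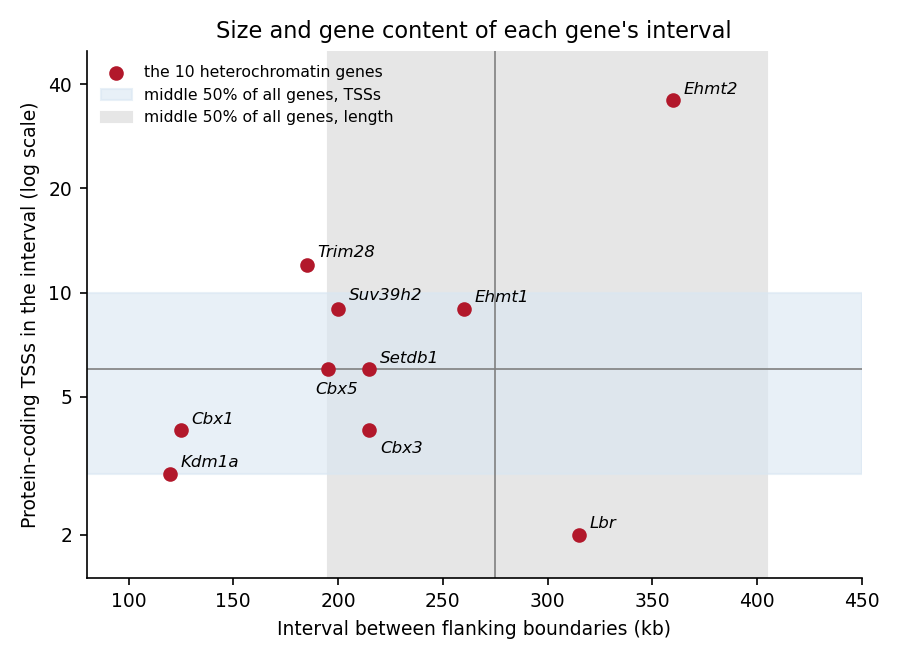
Length of the interval between flanking boundaries (kb) against the number of protein-coding TSSs in it, the gene itself included (log axis), for the 10 heterochromatin genes. Shaded bands span the quartiles over all protein-coding genes and grey lines mark their medians, 275 kb and 6 TSSs. Ehmt2 (36 TSSs) and Lbr (2 TSSs) lie far apart in gene content at similar interval lengths.

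Lbr encodes the lamin B receptor, an inner nuclear membrane protein that binds HP1 and also has sterol reductase activity. The gene lies at chr1:181815335-181843046 on the minus strand. A Strong boundary (score 0.963) lay 44.5 kb upstream of its TSS, and a Weak one (score 0.369) lay 271 kb downstream. The only other TSS in the interval was that of the dynein heavy chain gene Dnah14, 266 kb away and 4.06 kb from the Weak boundary. Enah, a regulator of actin filaments, had the nearest TSS on the upstream side, 177 kb away and beyond the Strong boundary. Lbr thus sat at 14.1% of the interval length from its nearer border, with most of the interval downstream of it.

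The 3 genes for HP1 proteins, the readers of methylated lysine 9, all lay away from boundaries. Cbx1, the gene for HP1 beta (chr11:96789127-96808640, plus strand), had a Strong boundary of score 1.57 at 51.6 kb upstream and a Weak one of score 0.314 at 73.4 kb downstream. Cbx3, the gene for HP1 gamma (chr6:51470360-51483704, plus strand), had a Weak boundary of score 0.450 at 92.9 kb upstream and a Strong one of score 0.991 at 122 kb downstream. Cbx5, the gene for HP1 alpha (chr15:103191544-103239816, minus strand), had a Strong boundary of score 2.08 at 123 kb upstream and a Strong one of score 1.08 at 72.3 kb downstream. All 3 sat near the middle of their intervals, at 41.3%, 43.2% and 37.1% of the interval length from the nearer border, against a median of 22.4% for all genes. For Cbx1 and Cbx3 this position holds only with Weak boundaries counted. With Strong boundaries alone, Cbx1 lay 51.6 kb from the upstream boundary and 258 kb from the downstream one. Cbx3 then lay 308 kb from the upstream boundary and 122 kb from the downstream one. From the coding transcript start nearest to a boundary, Cbx5 lay 47.8 kb from it.

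The HP1 genes shared their intervals with members of the same gene families. A gene of the Nfe2 family of basic leucine zipper transcription factors lay in each of the 3 intervals without a boundary between, Nfe2l1 at 40.8 kb from Cbx1, Nfe2l3 at 37.7 kb from Cbx3 and Nfe2 at 18.6 kb from Cbx5. Sorting nexin genes lay beside Cbx1 (Snx11, 11.6 kb) and Cbx3 (Snx10, 53.5 kb). Coatomer zeta subunit genes lay beside Cbx1 (Copz2, 60.7 kb) and Cbx5 (Copz1, 32.9 kb). These are paralogous regions on the chromosomes of the Hox clusters. There was 1 boundary between Cbx1 and Hoxb1 (423 kb apart) and 1 between Cbx5 and Hoxc4 (221 kb). The region beside the Hoxd cluster holds no HP1 gene. There Nfe2l2 and Hnrnpa3, chosen after their values were seen, shared an interval of 205 kb at 45.4 kb from each other, with 3 boundaries between Nfe2l2 and Hoxd1.

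**Figure D4:**
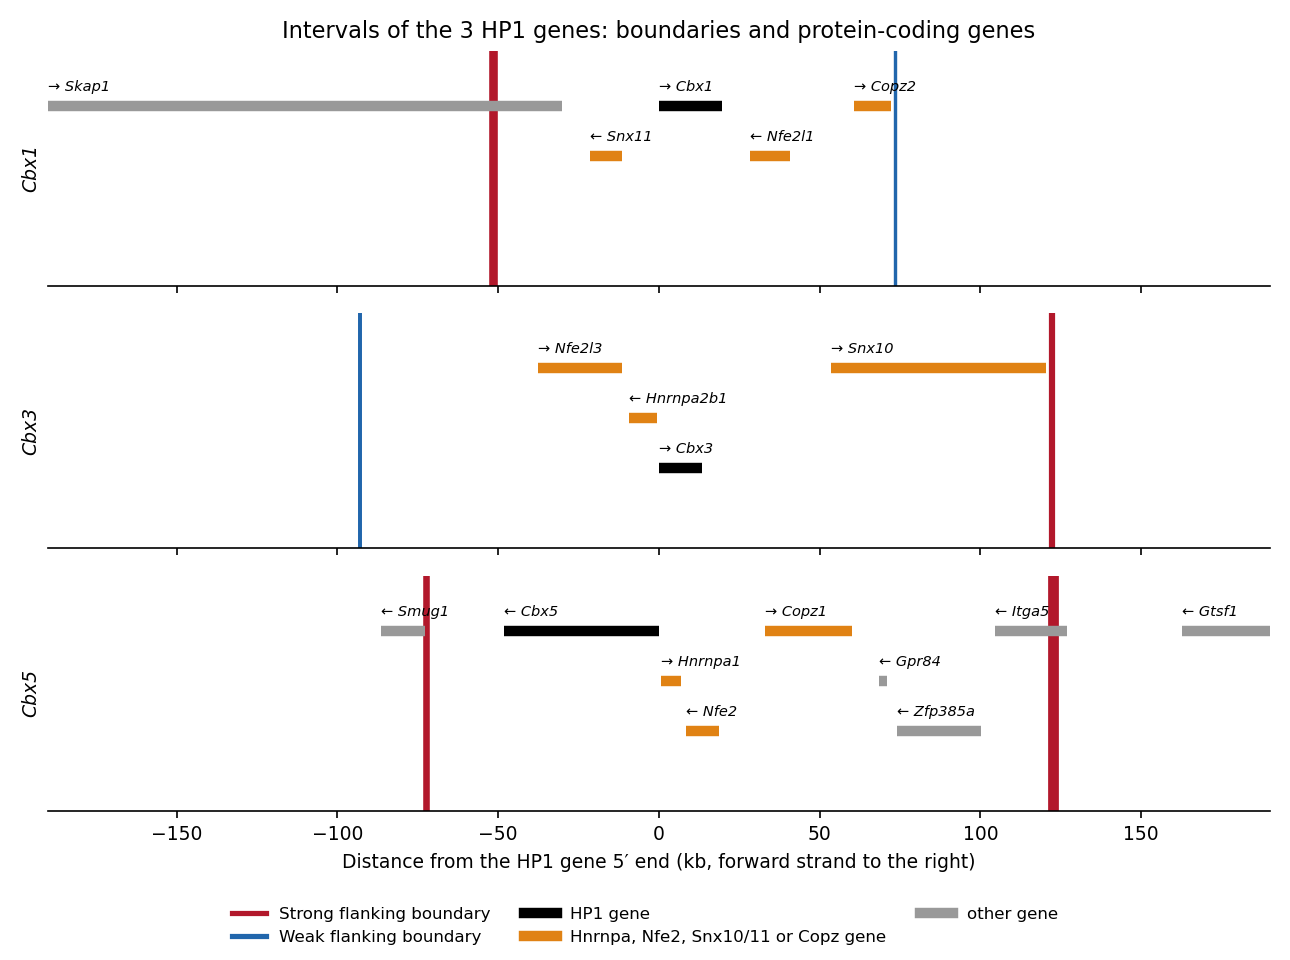
The intervals of Cbx1, Cbx3 and Cbx5, with distance from the HP1 gene's 5′ end in kb and the forward strand to the right. Vertical lines are the flanking boundaries, coloured by class and wider for a higher score, bars are protein-coding genes with arrows for their strand, and orange marks families found beside several HP1 genes. Cbx3 and Cbx5 adjoin Hnrnpa2b1 and Hnrnpa1, and all 3 HP1 genes have a gene of the Nfe2 family between the same boundaries.

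Cbx3 and Cbx5 each faced a gene for a heterogeneous nuclear ribonucleoprotein, a family of RNA-binding proteins that act in splicing. The TSS of Hnrnpa2b1 lay 466 bases from that of Cbx3, and the TSS of Hnrnpa1 lay 616 bases from that of Cbx5, in both pairs on opposite strands and pointing apart. Cbx1 had no such partner within 1 kb, and its nearest neighbour upstream was Snx11 at 11.6 kb. By the annotated 5′ ends, 4 of the 10 genes had a divergent protein-coding neighbour within 1 kb, against 6.82% of all genes. For the other pairs, Ehmt2 with C2 (204 bases) and Trim28 with Slc27a5 (922 bases), the facing 5′ end of C2 and of Trim28 is that of a transcript annotated as non-coding. With the start of the principal coding transcript (APPRIS), only the 2 HP1 pairs remained. The RefSeq promoter windows of Cbx3 and Cbx5 are shown because these 2 pairs face each other. The Cbx5 window lies mostly between the facing 5′ ends, while the Cbx3 window starts just inside the annotated Cbx3 gene (RefSeq, GRCm38.p6, chr6:51470366-51470665 on the plus strand and chr15:103239803-103240102 on the minus strand, 250 bases before to 50 after a RefSeq start). Capitals mark GC boxes (GGGCGG or CCGCCC) and CCAAT boxes (CCAAT or ATTGG) on either strand.
Cbx3: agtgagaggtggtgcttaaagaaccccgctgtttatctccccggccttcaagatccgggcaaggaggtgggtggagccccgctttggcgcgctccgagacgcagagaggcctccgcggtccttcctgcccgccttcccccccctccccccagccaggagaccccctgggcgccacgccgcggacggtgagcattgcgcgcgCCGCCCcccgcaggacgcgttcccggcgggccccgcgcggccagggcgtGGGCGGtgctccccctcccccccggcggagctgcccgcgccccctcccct
Cbx5: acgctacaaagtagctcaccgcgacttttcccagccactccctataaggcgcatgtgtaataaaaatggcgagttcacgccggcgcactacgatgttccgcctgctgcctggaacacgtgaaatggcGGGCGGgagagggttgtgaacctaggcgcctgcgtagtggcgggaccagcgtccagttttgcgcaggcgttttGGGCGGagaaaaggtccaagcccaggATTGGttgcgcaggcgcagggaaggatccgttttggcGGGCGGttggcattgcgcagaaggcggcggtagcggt

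The Cbx3 window held 2 GC boxes and the Cbx5 window 3 GC boxes and 1 CCAAT box. Both were rich in CpG dinucleotides, with observed over expected ratios of 0.815 for Cbx3 and 1.09 for Cbx5. Across the promoters of all 10 genes this ratio was 0.703 to 1.09, with a median of 0.916, against 0.604 over 16433 RefSeq promoters of protein-coding genes. A GC box was present in 9 of the 10 promoters, against 48.7% of the 16433, and a CCAAT box in 4 of 10, against 38.7%. No member promoter held TATAAA on either strand, against 12.9% of all. The motif GCGCNNGCGC, the consensus of the factor NRF1, was in 4 of 10 (Cbx5, Ehmt1, Suv39h2 and Kdm1a), against 9.18%. The ETS motif CCGGAAG was in 1 of 10, against 12.4%. The 10 promoters were also richer in G and C, with a median of 66.2% against 57% for all promoters. The GC box and the NRF1 motif are made mostly of these letters. Whether their counts differ from those of promoters with a like GC content was not tested.

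The genes of the lysine 9 methyltransferases lay in unlike settings. Ehmt1 encodes GLP, which pairs with the Ehmt2 product G9a to write dimethylated lysine 9. Its gene (chr2:24789928-24919614, minus strand) is the longest of the 10, at 130 kb against a median of 29.8 kb for the 10 genes and 17.4 kb for all genes. A Strong boundary of score 0.855, at chr2:24915001-24920000, held the Ehmt1 TSS inside its bin, with the midpoint 2.11 kb downstream of the TSS, in an intron. Only 868 genes (3.99%) have a TSS inside a boundary bin. The boundary left 1.63% of the Ehmt1 gene body on the side of the TSS and the rest in the next interval, 345 kb long. A boundary midpoint lay in the gene body of 1 of the 10 genes, against 13% of all genes. The promoter is shown because the boundary bin covers it (RefSeq, GRCm38.p6, chr2:24919560-24919859, minus strand), with GC boxes in capitals.
Ehmt1: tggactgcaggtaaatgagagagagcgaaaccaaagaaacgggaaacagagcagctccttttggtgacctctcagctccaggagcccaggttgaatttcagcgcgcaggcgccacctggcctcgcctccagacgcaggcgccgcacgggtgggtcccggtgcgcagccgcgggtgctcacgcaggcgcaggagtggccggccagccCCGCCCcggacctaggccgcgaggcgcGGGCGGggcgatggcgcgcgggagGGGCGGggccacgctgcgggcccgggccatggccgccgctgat

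The window held 3 GC boxes and 34 CpG dinucleotides. On the upstream side of Ehmt1 the next boundary, Strong with a score of 0.628, lay 258 kb away and 3.26 kb from the TSS of Nrarp, a regulator of Notch signalling. The interval between held 8 other TSSs, of which Arrdc1 (15.6 kb from Ehmt1), Zmynd19 (30.2 kb) and Dph7 (42.8 kb) were nearest. On the other side, the nearest TSS was that of the calcium channel gene Cacna1b, at 156 kb and across the boundary.

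Ehmt2, the paralogue and partner of Ehmt1, lay in a different setting, in the gene-dense histocompatibility region of chromosome 17 (chr17:34898469-34914052, plus strand). Its flanking boundaries were Weak, at 91.0 kb upstream (score 0.489) and 269 kb downstream (score 0.241), and the nearest Strong boundary lay 346 kb away. There were 65 other protein-coding TSSs within 500 kb, the most of the 10 genes, against a median of 16 for all genes. Its neighbours were the complement gene C2 and Gm20547 on one side, and the choline transporter gene Slc44a4 (16.0 kb) and the sialidase gene Neu1 (32.8 kb) on the other. The upstream boundary lay 2.94 kb from the TSS of Cyp21a1, a steroid hydroxylase gene, and the downstream one 2.60 kb from the TSS of Prrc2a. The mapping used the C57BL/6J reference, and whether sequence differences of the 129P2/OlaHsd mice in this variable region affect the boundaries was not tested.

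Setdb1 and Suv39h2 encode enzymes that write trimethylated lysine 9, the first as a partner of TRIM28 and the second mainly in constitutive heterochromatin. Setdb1 (chr3:95323525-95357202, minus strand) had Strong boundaries on both sides, at 145 kb upstream (score 0.687) and 69.7 kb downstream (score 1.19). The upstream boundary lay in an intron of Ctsk, the gene of the protease cathepsin K, and the downstream one in an intron of Mindy1. Its interval of 215 kb held Anxa9, the ceramide synthase gene Cers2, 4930558C23Rik, Arnt (which encodes a partner of the hypoxia and aryl hydrocarbon receptor factors) and Ctsk. Suv39h2 (chr2:3455815-3475031, minus strand) also had Strong boundaries on both sides, at 57.5 kb upstream (score 0.871) and 143 kb downstream (score 1.14). The downstream boundary was the first on chromosome 2 in the list and lay 0.143 kb from the TSS of Rpp38, a subunit gene of ribonuclease P. The other genes of that 200 kb interval were Acbd7, Olah, Meig1, the DNA repair gene Dclre1c, Gm45902, Hspa14 and Cdnf.

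Trim28 encodes KAP1, the corepressor that KRAB zinc finger proteins recruit, and it lay among zinc finger genes. By the annotated 5′ end of the gene (chr7:12999114-13031035, plus strand) the nearest boundary was Strong (score 1.11), 63.4 kb downstream, and a Weak one (score 0.246) lay 122 kb upstream. That 5′ end belongs to a non-coding transcript, and the only protein-coding transcript starts 25.0 kb farther on, at 13024152. From the coding start the Strong boundary was 38.3 kb away, which makes Trim28 the third nearest of the 10 genes to a boundary, where the annotated 5′ end makes it the sixth. A shift of at least 25 kb between the 2 definitions was found for 2.18% of all genes, and the RefSeq promoter of Trim28 also sits at the coding start. With principal coding starts (APPRIS) for every gene, 1 of the 10 genes lay within 25 kb of a boundary (background 23.6%) and 4 within 50 kb (background 42.9%), Trim28 being the added one. Of the 11 other genes in its 185 kb interval, Zfp128, Zscan22, Zfp324, Zfp446, Zbtb45 and Mzf1 encode zinc finger proteins. The interval also held Rnf225, Slc27a5, Chmp2a and Ube2m. The Strong boundary lay 7.74 kb from the TSS of Mzf1, in a bin of which 78.3% is soft-masked repeat in the reference, the highest share of the 20 flanking boundaries (median 24.7%).

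Kdm1a, the gene of the lysine demethylase LSD1 (chr4:136550540-136602723, minus strand), had the strongest contrast between its 2 sides. The boundary 29.8 kb upstream was Strong with a score of 2.29, at the 98.2 percentile of all 7576 boundaries. The boundary 90.2 kb downstream was Weak with a score of 0.297, a ratio of 7.74 between the sides. The other 9 genes had ratios between 1.31 and 4.99. The Strong boundary lay in an intron of Lactbl1, and the Weak one in an intron of Luzp1. Lactbl1 (19.9 kb) and Tex46 (7.71 kb) were the only other genes with a TSS in the interval.

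CTCF is a DNA-binding protein that halts loop extrusion at many boundaries, and matches to its 12-base core lay within 10 kb of 17 of the 20 flanking boundaries, against 58% of all boundaries. The match nearest to the midpoint of each gene's nearer boundary is shown in its own 5′ to 3′ direction, since most share the same letters (GRCm38). Capitals mark the core. The Suv39h2 boundary had no match.
Lbr (chr1:181888944-181888979, plus strand): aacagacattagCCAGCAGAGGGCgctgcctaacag
Cbx1 (chr11:96734596-96734631, plus strand): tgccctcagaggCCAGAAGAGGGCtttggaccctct
Cbx3 (chr6:51375936-51375971, plus strand): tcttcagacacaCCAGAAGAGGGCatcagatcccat
Cbx5 (chr15:103172696-103172731, minus strand): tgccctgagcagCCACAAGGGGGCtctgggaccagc
Ehmt1 (chr2:24911948-24911983, plus strand): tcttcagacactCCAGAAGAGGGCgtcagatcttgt
Ehmt2 (chr17:34805378-34805413, minus strand): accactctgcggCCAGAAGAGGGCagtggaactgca
Setdb1 (chr3:95289377-95289412, plus strand): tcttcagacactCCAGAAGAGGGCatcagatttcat
Trim28 (chr7:13063559-13063594, plus strand): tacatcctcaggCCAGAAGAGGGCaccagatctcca
Kdm1a (chr4:136636179-136636214, minus strand): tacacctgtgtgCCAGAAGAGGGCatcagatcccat

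Most of these matches lay in repeats. The core CCAGAAGAGGGC was in 7 of the 9 shown, all 7 in sequence that is soft-masked as repeat in the reference, while the matches at the Lbr and Cbx5 boundaries were in unmasked sequence. Over all 39 matches at the 20 boundaries, 28 (71.8%) had this core and 30 (76.9%) were soft-masked, against 54.8% and 66.7% of the 8861 matches counted at all boundaries. As background, mouse B2 SINE elements are known to carry CTCF motifs. The repeat family of these matches is not annotated in the files used here. Counting only unmasked matches, 7 of the 20 flanking boundaries had one, against 30.6% of all boundaries, and 3 of the 20 had a match to a stricter consensus, against 13.8%. The 7 with an unmasked match were the upstream boundaries of Lbr and Ehmt2, the downstream ones of Cbx1, Cbx5 and Suv39h2, and both of Trim28.

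By class, 10 of the 13 Strong flanking boundaries had a core match (68.5% of all Strong boundaries) and 7 of the 7 Weak ones (46.1% of all Weak boundaries). These counts include matches in repeats. Of the Weak ones, only the downstream boundary of Cbx1 and the upstream ones of Ehmt2 and Trim28 had an unmasked match. The share of all Weak boundaries with an unmasked match was not computed. The 3 without a match were the upstream boundaries of Cbx5, Ehmt1 and Suv39h2, all Strong. Of the 39 matches, 18 pointed into the interval that holds the gene and 21 pointed out of it. At least 1 match pointed inwards at 14 of the 20 boundaries, against 38.6% of all interval ends. Both values include matches in repeats. Unmasked inward matches lay only at the downstream boundaries of Cbx1 and Suv39h2, the upstream one of Ehmt2 and both of Trim28. The share of all interval ends with an unmasked inward match was not computed. A match is a sequence, and CTCF binding was not measured.

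**Figure D5:**
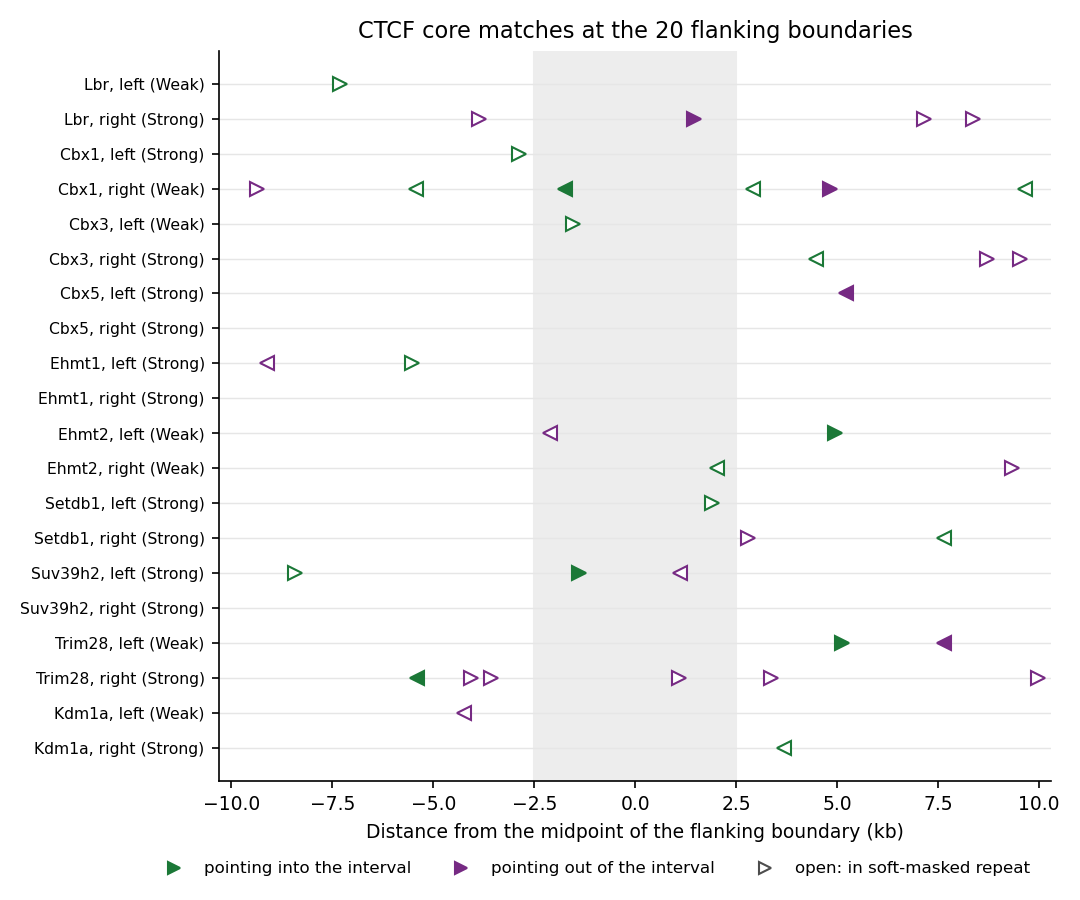
CTCF core matches within 10 kb of the 20 flanking boundaries, by distance from the boundary midpoint (kb), with left and right on the forward strand and the boundary class in brackets. Triangles point along the match, green into and purple out of the interval that holds the gene, open symbols are in soft-masked repeats, and the grey band is the boundary bin. Of the 39 matches, 30 are open.

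Other genes of the same pathways were counted by lists of related roles, with 88 genes in 9 lists. Within 25 kb of a boundary lay 19 of the 88 (background 23.9%) and within 10 kb 7 of 88 (background 11.5%), with a median distance of 65.5 kb. The 7 were Kdm1b (0.999 kb), the second LSD-type demethylase gene, Tor1aip1 (1.02 kb), whose product binds lamins, Ahdc1 (1.24 kb), the neuronal gene repressor Rest (2.99 kb), the nucleosome remodeller Chd4 (3.48 kb), Suv39h1 (7.26 kb) and Rcor3 (9.44 kb), a CoREST gene. The 3 farthest were Ezh2 (272 kb), the Polycomb methyltransferase gene, Jmjd1c (226 kb) and Kdm3a (190 kb), both of the lysine 9 demethylase family.

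By list, the counts within 25 kb were 5 of 16 for LSD1 and CoREST partners, 4 of 14 for nuclear lamina and envelope genes and 3 of 12 for HP1 partners and heterochromatin maintenance. They were 2 of 11 for Polycomb enzymes and chromoboxes, 2 of 10 for lysine 9 and 36 demethylases and 1 of 11 for DNA methylation genes. They were 1 of 7 for further lysine 9 methyltransferases and their partners (Suv39h1), 1 of 3 for H4K20 methyltransferases and 0 of 4 for the HUSH complex and its effectors. The HUSH genes lay 117 to 161 kb from a boundary. The nearest boundary was Strong for 67 of the 88 genes (76.1%), against 64.4% of all genes.

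Paralogues of the same enzyme differed in their distance to a boundary. Kdm1b had a Strong boundary (score 0.955) in the bin of its TSS, while Kdm1a lay 29.8 kb from one. Suv39h1 on the X chromosome had a Weak boundary (score 0.341) at 7.26 kb, while Suv39h2 had a Strong one at 57.5 kb. Among chromobox genes, the HP1 genes lay 51.6 to 92.9 kb from a boundary and the Polycomb genes Cbx2, Cbx6, Cbx7 and Cbx8 33.6 to 103 kb. The last group is not 4 separate positions, since Cbx2 and Cbx8 share 1 interval of 295 kb. Cbx6 and Cbx7, both on chromosome 15, also had the same score (0.742) at their nearest boundary.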

How the data were processed

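In situ Hi-C was measured in 2 biological replicates of 1 group. Per the labels' design text, the authors merged the 2 replicates' contacts in a single GRCm38 matrix, from which boundaries were called. The deposited list holds 7576 bins of 5 kb with a class and a boundary score, and the sources used here give no unit, caller or settings. The highest Weak score was 0.4996 and the lowest Strong one 0.5002. The depth is unknown, and no boundary could be compared between replicates.

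Genes and TSSs came from GENCODE M21, and sequence from RefSeq GRCm38.p6 (C57BL/6J), whose chromosome lengths hold every boundary. Of 21755 protein-coding genes, the first of each symbol was kept (21728). Flanking boundaries are the nearest midpoints on each side of the TSS, and the interval runs between them. The CTCF core was searched as letters on both strands. The promoters of all 10 genes were in the RefSeq table. All 88 list genes matched, Tasor under its older symbol Fam208a. The code was tested on simulated data with planted distances and motifs. Python 3.11.15, numpy 2.4.6 and pandas 2.3.3 were used.

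No p-values are given, since 1 pooled list has no replicates. Members, lists and alternatives were chosen with earlier results of these data known. Named genes are the 10 members, the genes of their intervals (the nearest ones for Ehmt2), the genes nearest to flanking boundaries, and the list genes within 10 kb of a boundary or farthest from one. Other genes named (the Hox, Hoxd-side and chromobox genes) were chosen after their values were seen, and some genes of these regions are not reported here. Alternatives were Strong or high-scoring boundaries, the higher-scoring flanking boundary, bin edges, other distances, other TSSs, another motif and unmasked matches.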

Additional observations from a re-analysis of the deposited data

How the results depend on the processing

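Leaving out a replicate was not possible, and no paired analysis was possible because the list pools both replicates of 1 group. The count of 1 of the 10 genes within 25 kb (23.9% of all genes) was also 1 with Strong boundaries (15.8%), higher-scoring boundaries (14.9%), bin edges (25.8%), nearest coding starts (26.2%), principal starts (23.6%) and a limit of 10 kb (11.5%). It was 3 at 50 kb (43.2%) and 10 at 100 kb (72.4%). The median distance was 60.4 kb with higher-scoring boundaries as in the main setting, but the all-gene median was then 109 kb. It was 49.7 kb from the nearest coding transcript start (all genes 55 kb) and 54.6 kb from the principal transcript start (all genes 59.7 kb), an alternative chosen after seeing the data. In both cases Trim28 moved to 38.3 kb, and in the first Cbx5 moved to 47.8 kb. With Strong or higher-scoring boundaries alone, Cbx3 moved to 122 kb, Ehmt2 to 346 kb and the median interval to 287.5 kb (all genes 480 kb with Strong and 510 kb with higher-scoring boundaries). The median of 4 boundaries within 500 kb was 2 within 250 kb (all genes 2) and 7.5 within 1000 kb (all genes 7). The median score of the nearest boundary was 1.02 (all genes 0.683). With the higher-scoring flanking boundary it was 1.12 (all genes 1.02), so the 10 genes were then close to all genes. A divergent neighbour was counted for 2 genes within 500 bases (Cbx3 and Ehmt2, against 6.19% of all genes) and for 2 from principal starts (Cbx3 and Cbx5, against 7.04%). A CTCF match lay at 3 of 20 flanking boundaries under the stricter consensus, against 13.8% of all boundaries. Outside repeats, also chosen after seeing the data, it was 7 of 20, against 30.6%, and both are far nearer to the shares over all boundaries than 17 of 20 is to 58%. The other alternatives moved no distance of a gene by more than 5 kb and no count by more than 1.5 times. The bin of 5 kb limits each distance, and the depth is unknown.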
